A study of Mus musculus with 6 samples.

Results

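*Slc7a11* encodes xCT, the light chain of the cystine/glutamate exchanger, and is described here in tail tendon together with 9 genes of the Nrf2 and glutathione system. The 10 genes are the rows named *Slc7a11*, *Slc3a2*, *Gclc*, *Gclm*, *Gpx4*, *Nqo1*, *Hmox1*, *Txnrd1*, *Srxn1* and *Nfe2l2* among the 44788 gene symbols of a bulk RNA-seq count table. *Slc7a11* was selected on its fitted fall between these same libraries, among the largest of all genes, so its difference between the genotypes is given as a description without a test. The other 9 were named for their pathway, with earlier results of these data known. The samples were 3 WT and 3 *Mkx*-/- tail tendon libraries from C57BL/6 mice whose labels give an age of 3 weeks, an age that differs from the one in the text of the study, and sequencing was on the Ion Proton. *Mkx*-/- mice carry a knockout of Mohawk, a tendon transcription factor, and serve as a model of ectopic bone in tendon. The labels name no treatment and no Cre for either group. The labels do not say whether each library came from 1 mouse or from pooled mice, so p-values measure the spread between these libraries.

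Cystine enters the cell through xCT, which is held at the membrane by a heavy chain, the product of *Slc3a2*. Inside the cell cystine is reduced to cysteine, the limiting building block of glutathione, and glutathione supplies the peroxidases that clear hydrogen peroxide and lipid peroxides. Nrf2, encoded by *Nfe2l2*, is a transcription factor that binds antioxidant response elements and switches on the xCT gene, the glutathione-forming enzymes and other protective genes when its repressor Keap1 is inactivated. A second factor, Atf4, drives *Slc7a11* when amino acids are short, through an element it binds with C/EBP partners.

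The promoter letters of the genes are shown first, because the stretches searched differed in which letters of these elements they held. RefSeq start sites on GRCm38.p6 were at hand for 8 of the 10 genes, not for *Gclc* and *Hmox1*, with 250 bases before and 50 after each start. These 8 genes had 13 windows, since a gene can have more than 1 start. A gene was counted where any of its windows held the letters, while the shares given are per window, which is not the same measure. The Atf4 element was searched as TGATGNAAN and the core of the antioxidant response element as TGACNNNGC, both on either strand. *Slc7a11* was the only one of the 8 genes with the Atf4 letters and held them at 2 places, from -66 to -58 and, on the opposite strand, from -48 to -40. Of all 32851 promoter windows, 3.95% held these letters at least once and 0.0700% at 2 or more places. The 250 bases before the *Slc7a11* start, chr3:50443614-50443863 on the minus strand of GRCm38.p6, are printed with both matches in capitals.
Slc7a11: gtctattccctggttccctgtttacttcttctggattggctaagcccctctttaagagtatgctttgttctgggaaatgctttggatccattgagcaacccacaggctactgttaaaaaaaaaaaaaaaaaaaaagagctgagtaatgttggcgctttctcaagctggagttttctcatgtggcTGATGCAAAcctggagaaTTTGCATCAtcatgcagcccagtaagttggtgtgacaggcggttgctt
The antioxidant core TGACNNNGC was found in 4 of the 8 genes, namely *Nfe2l2*, *Srxn1*, *Gclm* and *Txnrd1*, and in 12.4% of all windows. It is in capitals in the stretches of *Gclm* (chr3:122245403-122245451, plus strand), *Txnrd1* (chr10:82859094-82859142, plus strand) and *Nfe2l2* (chr2:75704875-75704913, minus strand), where *Gclm* and *Txnrd1* carry it on the opposite strand.
Gclm: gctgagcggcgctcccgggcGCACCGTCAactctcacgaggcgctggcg
Txnrd1: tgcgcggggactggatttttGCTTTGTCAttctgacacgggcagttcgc
Nfe2l2: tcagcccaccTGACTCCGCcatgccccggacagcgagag
The *Slc7a11* window did not hold TGACNNNGC. With the looser TGANNNNGC, chosen after the first search was seen, 5 of the 8 genes including *Slc7a11* had a match, as did 41.3% of all windows. A match of letters is a description and does not show that a factor binds there. Letters outside these windows were not searched, so a gene without a match may hold such an element elsewhere.

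The libraries held between 10835070 and 14160301 counts. *Col1a1*, *Col1a2* and *Sparc* took 42.0% to 48.5% of the counts in WT and 28.3% to 34.8% in *Mkx*-/- libraries, so levels are given as CPM normalized by the TMM method, which brings the libraries to a common scale less sensitive to such abundant genes. *Mkx* itself had 1381 to 1825 counts in WT and 491 to 620 in *Mkx*-/- libraries, so reads remained after the knockout. WT replicate 3 had 301 counts on the Y-linked gene *Ddx3y* and the other 5 libraries had 0. On the X-inactivation gene *Xist* it had 1 count, and the other 5 had 1289 to 1866. By these genes WT replicate 3 was male and the other 5 libraries were female, so sex was not balanced between the genotypes. WT replicate 1 stood apart in *Txnip*, a glucose-responsive thioredoxin inhibitor, with 3129 CPM against 643 and 450 in the other WT libraries, and in the summed level of 11 erythroid genes, with 455 CPM against 86.0 and 105. Of 10 tendon markers all were detected, with means of 16300 CPM of *Fmod* and 1083 CPM of *Tnmd* in WT. In all, 14550 genes had enough counts to be tested, and all 10 members were among them. A gene passed the test at an adjusted p under 0.05 in edgeR's quasi-likelihood test over all tested genes, which 3.18% of genes did with a higher and 2.26% with a lower level in *Mkx*-/- tendons. It was called where its change was also over 2-fold, as 1.89% of genes were with a higher level, 1.33% with a lower level and 3.22% in all.

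*Slc7a11* nearly disappeared from *Mkx*-/- tendons, and none of the other 9 genes passed the test. *Slc7a11* spans 50168858 to 50247535 of chromosome 3 (mm9, minus strand). Its counts were 392, 252 and 411 for WT replicates 1 to 3, against 21, 15 and 23 for the knockout. As normalized CPM this gave 30.9, 24.7 and 32.9 against 1.92, 1.05 and 1.82. The lowest WT library was thus far above the highest *Mkx*-/- library, and reads remained in all 3 of the latter. The fitted log2 fold change was -4.22, an 18.6-fold lower level. Among the 121 genes called lower whose mean reached 5 CPM, it lay between *Cuzd1* at -4.23 and *LOC102637600* at -3.73. Over all tested genes, those with lower means included, the lowest log2 fold change was -7.82. The value for *Slc7a11* lay between -4.39 and -3.97 in every alternative fit, the leaving out of each library included. These fits reuse the libraries on which *Slc7a11* was chosen, so they describe its fall and do not test it. Bulk RNA cannot tell fewer cells that express a gene from less of its RNA per cell.
Of the 9 other members 0 passed edgeR's test and 0 passed with DESeq2, where 5.44% of all tested genes passed in edgeR in either direction. At an unadjusted p under 0.05 there were 2 of the 9, *Nqo1* with a lower and *Nfe2l2* with a higher level, a share of 22.2% where 22.6% of all tested genes had such a p, 12.5% with a higher and 10.1% with a lower level. With DESeq2 9.45% of all tested genes passed, 4.04% with a lower level. The fitted level was higher in 8 of the 9 and lower in *Nqo1*, where it was higher in 7208 of all 14550 tested genes. The median log2 fold change of the 9 was 0.14, against -0.0037 over all tested genes. Scaling by library size only, which moved the median of all genes to 0.25, gave these 9 a median of 0.40. The plot of levels by library shows the difference between *Slc7a11* and the others.

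**Figure D1:**
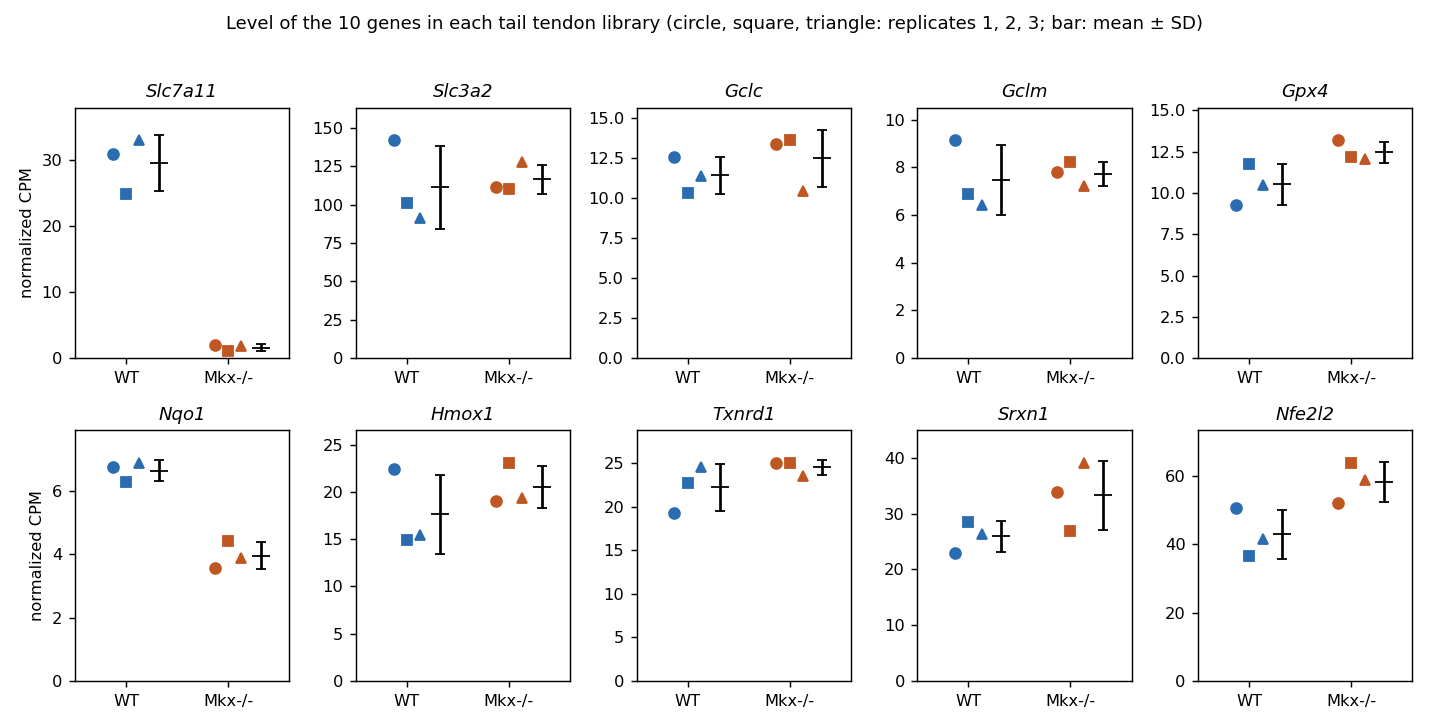
Normalized CPM (y axis, starting at 0) of the 10 genes in the 3 WT and 3 *Mkx*-/- libraries, with circles, squares and triangles for replicates 1, 2 and 3 and a black bar for the mean ± SD. *Slc7a11* sits at 24.7 to 32.9 CPM in WT and 1.05 to 1.92 CPM in *Mkx*-/- libraries, the groups of *Nqo1*, *Gpx4* and *Nfe2l2* also do not overlap, and those of the other 6 genes do.

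The partner of xCT at the membrane kept a level that the fit could not tell from WT. *Slc3a2*, on chromosome 19 from 8781372 to 8797859, encodes the heavy chain that xCT shares with other amino acid carriers. It had 142, 101 and 91.4 CPM in WT against 111, 110 and 128 CPM in the knockout. WT replicate 1 was the highest of all 6, and the groups overlapped. The log2 fold change was 0.064 with a 95% confidence interval of -0.34 to 0.47 (adjusted p = 0.873 by edgeR), and its sign turned to -0.018, -0.077 and -0.0066 without WT replicate 2, WT replicate 3 and *Mkx*-/- replicate 3.
Levels of different genes were set side by side per kilobase of annotated exon. All annotated exons were summed, to 11245 bases for *Slc7a11* and 2958 for *Slc3a2*, so long rare exons would lower the level given for a gene. In WT the sum of 5 light chains that pair with *Slc3a2*, *Slc7a5*, *Slc7a6*, *Slc7a7*, *Slc7a8* and *Slc7a11*, was 28.9 to 42.1 CPM per kb, close in size to *Slc3a2* itself at 30.9 to 48.0 CPM per kb. In the knockout the sum was 30.0 to 32.7 CPM per kb, below *Slc3a2* at 37.3 to 43.2 CPM per kb. These are RNA levels and do not give the ratio of the proteins. *Slc7a11* made up 6.53%, 7.61% and 9.26% of the light chain sum across the WT replicates, against 0.522%, 0.308% and 0.540% across those of the knockout. There were 10.6 to 17.5 units of *Slc3a2* per unit of *Slc7a11* in WT and 220 to 398 in *Mkx*-/- tendons. The change of this share and ratio between the genotypes restates the fall for which *Slc7a11* was chosen.
The other light chains carry leucine, glutamine and cationic amino acids. Without *Slc7a11* their sum was 31.6 ± 6.78 CPM per kb (SD, n = 3) in WT against 30.9 ± 1.45 CPM per kb (SD, n = 3) in the knockout, a difference smaller than the spread between WT libraries. None of the 4 passed the test, with log2 fold changes of 0.11 for *Slc7a5*, -0.018 for *Slc7a6*, -0.28 for *Slc7a7* and -0.37 for *Slc7a8* (adjusted p = 0.785, 0.958, 0.610 and 0.291 by edgeR). The levels of *Slc7a8* in CPM lay between 8.01 and 10.6 in WT and between 6.18 and 8.01 in *Mkx*-/- libraries. The related carriers *Slc7a9* and *Slc7a10* had 0 counts in all 6 libraries. The lysosomal cystine exporter *Ctns* had a log2 fold change of 0.18 (adjusted p = 0.481 by edgeR).

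**Figure D2:**
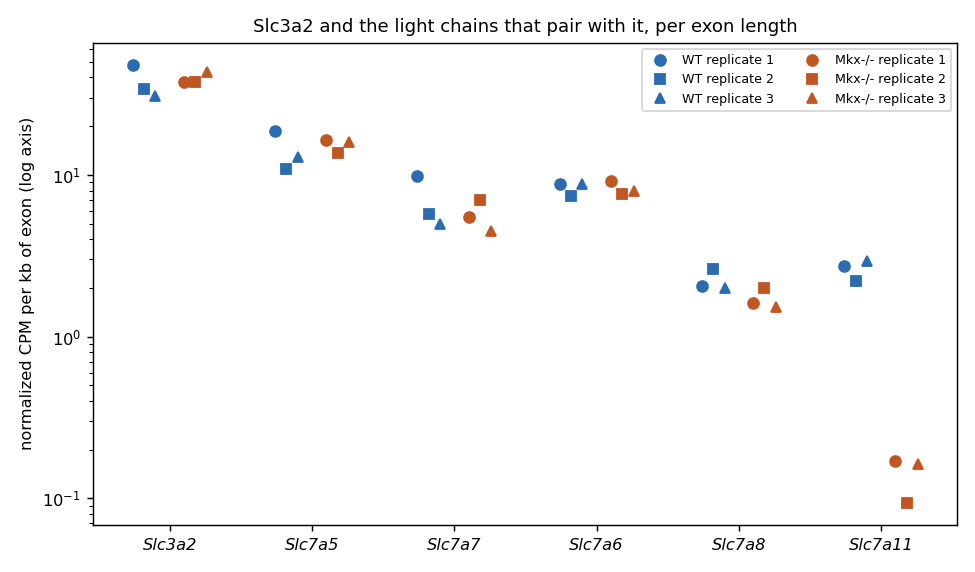
Normalized CPM per kb of exon (y axis, log scale) of the heavy chain gene *Slc3a2* and of the light chain genes that pair with it, in each WT (blue) and *Mkx*-/- (orange) library. The points of *Slc7a11* lie at 2.20 to 2.93 in WT and at 0.0937 to 0.171 in *Mkx*-/- libraries, and none of the other light chains passed the test.

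Glutathione is built in 2 steps, and the enzyme of the first was measured in both its subunits. *Gclc*, on chromosome 9 from 77602342 to 77642292, encodes the catalytic subunit of glutamate-cysteine ligase. Its levels were 12.6, 10.3 and 11.4 CPM in WT and 13.4, 13.6 and 10.5 CPM in *Mkx*-/- libraries. *Gclm*, on chromosome 3 from 121948475 to 121972902, encodes the modifier subunit and had 9.14, 6.87 and 6.41 CPM in WT and 7.79, 8.22 and 7.21 CPM in *Mkx*-/- libraries. Both genes overlapped between the genotypes. The log2 fold change was 0.13 for *Gclc* (95% confidence interval -0.24 to 0.50, edgeR adjusted p = 0.700) and 0.049 for *Gclm* (-0.38 to 0.48, edgeR adjusted p = 0.911). That of *Gclm* turned to -0.020 and -0.067 without WT replicates 2 and 3. The annotation places *Gm17494* on the opposite strand of *Gclm*, and how the counting treated strand is not given in the sources used here.
*Gss*, which completes glutathione, and *Gsr*, which reduces its oxidized form, were named for their role after their values were seen. They had log2 fold changes of 0.20 and 0.17 (adjusted p = 0.579 and 0.622 by edgeR).

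*Gpx4*, on chromosome 10 from 79509911 to 79519184, encodes the peroxidase that uses glutathione to detoxify lipid peroxides in membranes. It had 9.30, 11.8 and 10.5 CPM in WT and 13.2, 12.2 and 12.0 CPM in *Mkx*-/- libraries, so each *Mkx*-/- library was above each WT library by a small margin. Such a lack of overlap occurred in 28.2% of all tested genes, and the log2 fold change of 0.25 (95% confidence interval -0.090 to 0.58, edgeR adjusted p = 0.369) did not pass. *Txnrd1*, on chromosome 10 from 82296696 to 82360469, encodes the cytosolic thioredoxin reductase, which keeps thioredoxin reduced. Its levels of 19.3, 22.8 and 24.6 CPM in WT and 25.0, 25.0 and 23.5 CPM in *Mkx*-/- libraries overlapped, with a log2 fold change of 0.14 (-0.15 to 0.44, edgeR adjusted p = 0.566). *Srxn1*, on chromosome 2 from 151931252 to 151937112, encodes sulfiredoxin, which revives overoxidized peroxiredoxins. It had 22.9, 28.5 and 26.4 CPM in WT and 33.9, 26.8 and 39.1 CPM in *Mkx*-/- libraries. *Mkx*-/- replicate 2 fell within the WT range and the other two were above it. The log2 fold change of 0.36 did not pass (-0.018 to 0.74, edgeR adjusted p = 0.243).

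*Nqo1* was the member nearest to the threshold and the only one besides *Slc7a11* with a lower level. It encodes a quinone reductase that is widely used as a readout of Nrf2 activity, and lies on chromosome 8 from 109912125 to 109927106. It had 6.78, 6.28 and 6.89 CPM in WT and 3.57, 4.43 and 3.88 CPM in *Mkx*-/- libraries, on 86, 64 and 86 counts and 39, 63 and 49 counts. The groups did not overlap, and the WT libraries lay close together. The log2 fold change was -0.74 (95% confidence interval -1.16 to -0.33), where edgeR's adjusted p was 0.0553, DESeq2's was 0.0585, and the range was between 0.0524 and 0.185 over the 15 alternative fits, of which it passed 0.
*Hmox1*, on chromosome 8 from 77617490 to 77624495, encodes heme oxygenase 1, which is abundant in macrophages that take up red cells. It had 22.5, 14.9 and 15.5 CPM in WT and 19.1, 23.0 and 19.3 CPM in *Mkx*-/- libraries. WT replicate 1, the library rich in erythroid RNA, lay within the *Mkx*-/- range and the other 2 WT libraries below it. The log2 fold change was 0.22 (-0.20 to 0.64, edgeR adjusted p = 0.533), and 0.43 without WT replicate 1 (adjusted p = 0.126 by edgeR). All 14 macrophage and leukocyte markers had a lower fitted level in *Mkx*-/- tendons, 13 with scaling by library size only. With a lower level 3 passed in edgeR and 5 in DESeq2, where 2.26% and 4.04% of all tested genes did. The summed level of the 14 was 641 to 697 CPM in WT and 410 to 511 CPM in *Mkx*-/- libraries. The part of these cells in the level of *Hmox1* was not tested.
*Nfe2l2*, on chromosome 2 from 75513570 to 75542698, had 50.8, 36.7 and 41.6 CPM in WT and 52.1, 63.9 and 58.8 CPM in *Mkx*-/- libraries. Each *Mkx*-/- library was above each WT library, replicate 1 of either genotype being the closest. The log2 fold change was 0.44 (95% confidence interval 0.090 to 0.78) and did not pass in edgeR (adjusted p = 0.132) or in DESeq2 (adjusted p = 0.128). It passed in 1 of the 15 alternative fits, without WT replicate 1, with a log2 fold change of 0.57 (adjusted p = 0.0431 by edgeR). The transcript of Nrf2 and that of its target *Nqo1* thus had fitted differences of opposite sign, and neither passed.

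**Figure D3:**
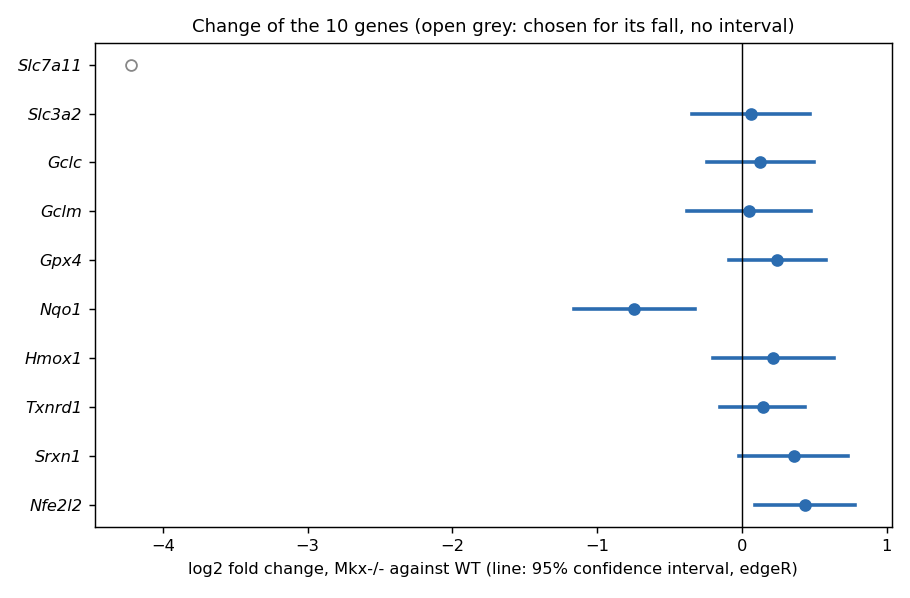
Log2 fold change of each of the 10 genes between *Mkx*-/- and WT tendons (x axis), with the 95% confidence interval of edgeR's fit as a line. *Slc7a11*, chosen for its fall, is the open point at -4.22 without an interval, and the other 9 lie between -0.74 and 0.44, with *Nqo1* and *Nfe2l2* the only intervals that leave out 0.

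Per exon length, *Slc3a2* was the most abundant member in both genotypes and *Slc7a11* moved to the end of the order. In WT the mean levels in CPM per kb were 37.7 for *Slc3a2*, 11.3 for *Nfe2l2*, 9.20 for *Srxn1*, 8.15 for *Hmox1*, 6.28 for *Gpx4*, 5.53 for *Txnrd1*, 4.28 for *Nqo1*, 3.34 for *Gclc*, 2.62 for *Slc7a11* and 1.45 for *Gclm*. The ranges of the 3 libraries overlapped between each neighbouring pair from *Nfe2l2* to *Txnrd1*, so the order of neighbours among these 5 genes does not exceed their spread. Genes further apart in the order could be separate, as *Nfe2l2* at 9.67 to 13.4 CPM per kb was from *Txnrd1* at 4.80 to 6.12. The ranges did not overlap between the other neighbouring pairs. In *Mkx*-/- tendons *Slc7a11* was last, at 0.142 ± 0.0423 CPM per kb (SD, n = 3), and *Nqo1* at 2.55 was below *Gclc* at 3.65, while the other genes kept their order. These lengths sum all annotated exons of a gene, so a gene with long rare exons is given a lower level than its main transcript has.

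The same question was put to 211 other genes in 13 lists around the members, of which 187 had enough counts. Of these 6 passed with a higher and 4 with a lower level in *Mkx*-/- tendons, which is 5.35% where 5.44% of all tested genes passed. Their median log2 fold change was -0.0051, against -0.0037 over all genes. Scaling by library size only let 13 pass higher and 2 lower, and made the median of each of the 13 lists positive. The 10 that passed in edgeR also passed in DESeq2, where 19 of the 187 did against 9.45% of all tested genes. Of the 10, 3, *Sod3*, *Abcc1* and *Mgst3*, passed whichever of the 6 libraries was left out. Of those 6 leave-one-out fits, *Ggt1* passed 3, *Gpx1* passed 1, *Gstz1* passed 1, *Txn1* passed 2, *Ugdh* passed 0, *Ddit4* passed 3 and *Cybb* passed 1.
Markers of other cells also differed between these libraries. Over all tested genes 3.18% passed in edgeR with a higher level, the share to set beside the counts of each list. Of 20 skeletal muscle markers 19 had a higher fitted level in the knockout and 6 passed in edgeR, with sums of 128 to 505 CPM in WT and 704 to 3479 CPM in *Mkx*-/- libraries. All 10 Schwann cell markers had a higher fitted level and 0 passed in edgeR, with sums of 8346 to 11018 and 12959 to 23990 CPM. Of 8 tested cartilage markers 3 passed with a higher level, with sums of 2162 to 2373 and 2985 to 4124 CPM, and of 12 endothelial markers 1 did, with sums of 97.7 to 124 and 165 to 229 CPM. The part of these cells in the pathway genes was not tested.
The largest fall in the 13 pathway lists was in *Ggt1*, a cell surface enzyme that breaks down extracellular glutathione and so returns its cysteine to the cell. It had 9.14, 18.4 and 14.6 CPM in WT and 4.31, 1.69 and 3.57 CPM in *Mkx*-/- libraries. The groups were well apart, and the level was 4.44-fold lower, a log2 fold change of -2.15 with a standard error of 0.37 (edgeR adjusted p = 0.0167, and 0.0663 without WT replicate 2). Of the other 16 tested genes of glutathione synthesis and recycling 0 passed in edgeR or DESeq2, 3 had an unadjusted p under 0.05, and the list had a median of -0.015. Its most abundant members were *Chac1*, which degrades glutathione inside the cell, *Oplah* and *Glo1*, with log2 fold changes of -0.72, -0.46 and -0.13 (adjusted p = 0.212, 0.240 and 0.583 by edgeR). Of the 11 tested genes of cysteine supply, such as the glutamine and serine carrier *Slc1a5*, *Ahcyl1* and *Mat2a*, 0 passed, with a median of -0.12, and 0 had an unadjusted p under 0.05 or passed with DESeq2.

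Among enzymes that use glutathione or thioredoxin, single genes rose. *Gpx1*, the cytosolic glutathione peroxidase, had 123, 129 and 108 CPM in WT and 180, 191 and 170 CPM in *Mkx*-/- libraries. It rose by 0.59 on the log2 scale (edgeR adjusted p = 0.0327, and 0.131 without WT replicate 3), while *Gpx3*, *Gpx7* and *Gpx8* did not pass. *Mgst3*, a microsomal glutathione transferase, had 8.67, 11.3 and 8.65 CPM in WT and 18.6, 27.5 and 28.0 CPM in *Mkx*-/- libraries. It rose 2.60-fold (adjusted p = 0.00849 by edgeR), and *Gstz1*, which acts in tyrosine breakdown, fell by 0.53 on the log2 scale (edgeR adjusted p = 0.0418, and 0.211 with scaling by library size). The other 16 of 18 tested transferases did not pass in edgeR, and the list had a median of -0.025. In DESeq2 *Gsto1* and *Mgst1*, with log2 fold changes of 0.72 and -1.35 by edgeR, passed too (adjusted p = 0.0347 and 0.0332). Reads of such near-identical families may have been split between members.
*Txn1*, the cytosolic thioredoxin that *Txnrd1* reduces, rose by 0.70 on the log2 scale, with 22.1 ± 1.53 CPM in WT against 35.9 ± 3.54 CPM in the knockout (SD, n = 3 each, edgeR adjusted p = 0.0211, and 0.0884 without WT replicate 3). It was the only one of 15 tested thioredoxin and peroxiredoxin genes to pass in edgeR, and *Sesn3*, a sestrin with a log2 fold change of -1.48, passed in DESeq2 only (adjusted p = 0.0820 in edgeR and 0.0196 in DESeq2).

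Of the Nrf2 regulators and further Nrf2 targets, 2 genes passed in edgeR, both among the targets. Of 12 tested regulators 0 passed in edgeR or DESeq2 and 0 had an unadjusted p under 0.05, with a median log2 fold change of 0.025. The most abundant, *Sqstm1*, which carries Keap1 to autophagy, went from 247 ± 83.1 in WT to 303 ± 64.9 CPM (SD, n = 3 each) without passing, and *Nfe2l1* and *Mafg* had log2 fold changes of 0.22 and -0.0051. *Keap1*, named here for its role after its values were seen, had 54.7 ± 8.92 and 54.7 ± 6.77 CPM (SD, n = 3 each). Of 23 further Nrf2 targets, 18 had a higher fitted level, where 7208 of all 14550 tested genes had one, and the median was 0.11. The 2 that passed are 8.70% of the list, where 5.44% of all tested genes passed. At an unadjusted p under 0.05 there were 5 higher and 2 lower, 30.4% against 22.6% of all tested genes. *Abcc1*, which exports glutathione conjugates, had 23.9, 19.8 and 20.7 CPM in WT and 56.3, 48.0 and 41.7 CPM in *Mkx*-/- libraries. It rose 2.26-fold (adjusted p = 0.00460 by edgeR). *Ugdh*, which makes the UDP-glucuronate used for matrix glycosaminoglycans as well as for detoxification, rose from 54.2 ± 3.33 to 77.2 ± 7.12 CPM (SD, n = 3 each, edgeR adjusted p = 0.0484) and passed in 0 of the 6 leave-one-out fits, with an adjusted p up to 0.170 without *Mkx*-/- replicate 3. The ferritin genes *Fth1* and *Ftl1*, the most abundant of the list, had log2 fold changes of 0.27 and 0.18 (adjusted p = 0.456 and 0.550 by edgeR). Both have many near-identical copies in the genome.
Of 9 tested heme pathway genes, 16 ferroptosis and iron genes and 18 genes of selenoproteins and their synthesis, 0 passed in each list, with medians of -0.089, 0.063 and 0.013. At an unadjusted p under 0.05 there were 1, 5 and 5 of them. These were 11.1%, 31.25% and 27.8% of the lists, where 22.6% of all tested genes had such a p. With DESeq2 0, 3 and 0 passed, where 9.45% of all tested genes did. The 3 were among the 16 ferroptosis and iron genes, 1 with a higher and 2 with a lower level. Their most abundant genes were *Fech*, *Slc39a14* and *Sepp1*, with log2 fold changes of -0.32, -0.71 and -0.46 (adjusted p = 0.122, 0.0933 and 0.210 by edgeR).

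Of 29 tested genes of the Atf4 list, 21 had a lower fitted level in the knockout, where 7342 of all 14550 tested genes did. The list's median log2 fold change was -0.16, and 0.086 when libraries were scaled by their size only, a scaling that raised the median of all genes to 0.25. Only *Ddit4*, a stress-induced inhibitor of mTORC1, passed in edgeR, with 333, 224 and 153 CPM in WT and 81.3, 92.6 and 48.3 CPM in *Mkx*-/- libraries. Its log2 fold change was -1.68 (edgeR adjusted p = 0.0247, and 0.0814 without WT replicate 2). With DESeq2 4 genes of the list passed with a lower level, where 4.04% of all tested genes did. At an unadjusted p under 0.05 in edgeR there were 8 lower and 1 higher, 31.0% of the list where 22.6% of all tested genes had such a p. *Atf4* itself had a mean of 183 CPM among the WT and 196 CPM among the *Mkx*-/- libraries, a log2 fold change of 0.092 (adjusted p = 0.703 by edgeR). *Slc38a2* and *Nupr1*, the other abundant genes of the list, had log2 fold changes of 0.17 and -0.67, with adjusted p-values by edgeR of 0.470 and 0.0584.
The list of superoxide sources and sinks held the strongest rise. *Sod3*, the extracellular superoxide dismutase that sits in the matrix, had 83.5, 83.3 and 77.8 CPM in WT and 253, 299 and 216 CPM in *Mkx*-/- libraries. It rose 3.14-fold, a log2 fold change of 1.65 with a standard error of 0.15 (adjusted p = 0.00135 by edgeR). *Cybb*, the NADPH oxidase subunit of phagocytes, fell from 15.2 ± 4.05 to 7.17 ± 1.59 CPM (SD, n = 3 each, edgeR adjusted p = 0.0417, and 0.134 without *Mkx*-/- replicate 3). Its fall went with the lower macrophage and leukocyte markers given above, and their part in it was not tested.

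**Figure D4:**
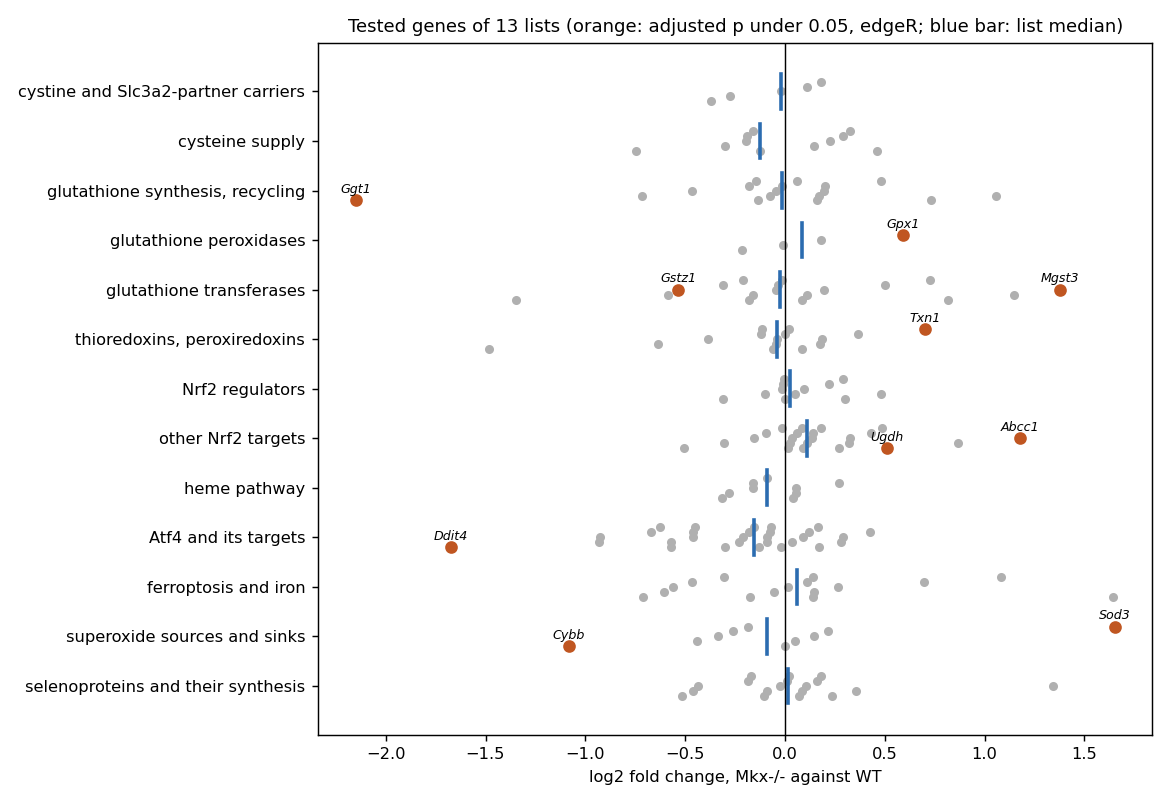
Log2 fold change between *Mkx*-/- and WT tendons (x axis) of the 187 tested genes in 13 lists (rows), with each gene as a point, the list median as a blue bar and genes with an adjusted p under 0.05 in edgeR in orange. The medians lie between -0.16 and 0.11, and the 10 orange genes lie on both sides of 0, from *Ggt1* at -2.15 to *Sod3* at 1.65.

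Markers of other cells were looked at for *Slc7a11*, which is also expressed in pigment cells and in activated macrophages. Of 9 melanocyte markers, *Tyr* and *Oca2* had 0 counts in all 6 libraries, *Dct* and *Mlana* had at most 2, and *Slc45a2* at most 5. *Tyrp1* had 2 to 6 counts in WT and 2 to 15 in *Mkx*-/- libraries. *Pmel* had 12 to 20 counts in WT and 20 to 34 in *Mkx*-/- libraries, with a log2 fold change of 0.63 (adjusted p = 0.335 by edgeR). The summed level of the 9 was 20.7 to 32.1 CPM in WT and 11.3 to 16.6 CPM in *Mkx*-/- libraries, and most of it came from *Mitf* and *Kit*, which other cells share. *Kit* passed with a log2 fold change of -2.02 (adjusted p = 0.00283 by edgeR). The macrophage and leukocyte sum in a *Mkx*-/- library was 58.9% to 79.8% of that in a WT library, over all pairs of libraries, and the level of *Slc7a11* was 3.20% to 7.78%. The part of these cells in the fall of *Slc7a11* was not tested. Of 10 tendon markers 0 passed in edgeR with a lower and 2 with a higher level, *Thbs4* and *Tppp3*. Over all tested genes 2.26% passed in edgeR with a lower and 3.18% with a higher level, and 4.04% passed in DESeq2 with a lower level. In DESeq2 4 passed with a lower level, *Scx*, *Col1a1*, *Col1a2* and *Egr1*, with log2 fold changes of -1.14, -0.68, -1.02 and -1.13 by edgeR. The summed level of the 10, most of it collagen, was 381971 to 524735 CPM in WT and 245115 to 339767 CPM in *Mkx*-/- libraries, without overlap. Its part in the levels of the members was not tested.
Genes whose levels over the 6 libraries were most like those of *Slc7a11* were sought by the root mean square difference of log2 CPM after centring each gene on its WT mean, over the 10294 genes whose mean reached 5 CPM. The 4 nearest were *Cuzd1*, *Ppp1r3c*, *Fgfr4* and *Plbd1*, with differences of 0.29, 0.61, 0.64 and 0.65 log2 units. *Cuzd1* fell from 23.6 ± 10.3 to 1.27 ± 0.455 CPM and *Ppp1r3c*, a glycogen-targeting subunit of protein phosphatase 1, from 81.6 ± 14.8 to 6.96 ± 0.872 CPM (SD, n = 3 each). This likeness rests on the difference between the genotypes, for which *Slc7a11* was chosen.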

How the data were processed

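For 3 WT and 3 *Mkx*-/- samples, total tail tendon RNA was made into libraries with the Ion Total RNA-Seq Kit v2. The authors removed adaptor, ambiguous and low-quality reads, aligned to mm9 with MapSplice and deposited a table of unnormalized read counts for gene symbols. The counting program, its annotation and its use of strand are not given in the sources used here. All 6 columns were matched to samples by their labels.

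From the deposited counts, edgeR 4.0.16 in R 4.3.3 gave TMM-normalized CPM and log2 fold changes (filterByExpr, quasi-likelihood fit on genotype, Benjamini-Hochberg adjustment, prior count 0.125). Among the 44788 symbols, 19011 were at 0 in all libraries. The study's tool, DESeq2 1.42.0, was an alternative. Both were tested on simulated counts. Exon lengths and mm9 coordinates came from GENCODE, and promoters from RefSeq on GRCm38.p6. Replicate libraries differed by 7.59 to 36.4 chi-square per degree of freedom, so none was the same library sequenced again. This does not show whether they came from separate mice.

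The members and the 13 pathway and 11 cell type lists were chosen with earlier results of these data known. Named were all members, *Mkx*, the genes of each list that passed (at most 6) and its most abundant (at most 3), neighbours of *Slc7a11* in the order of falls, and the 5 profiles most like it, of which 1 is not reported here. *Keap1*, *Gss*, *Gsr*, *Gpx3*, *Slc7a7* to *Slc7a10*, *Ctns*, *Sesn3*, *Gsto1*, *Mgst1* and single cell markers were named for their role after their values were seen.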

Additional observations from a re-analysis of the deposited data

How the results depend on the processing

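Scaling by TMM, RLE or upper quartile, DESeq2, both filters, a robust fit, removal of 20 muscle genes, the replicate block, scaling by library size and each library left out were run for every member and list. *Slc7a11*, chosen for its fall, is left out of these counts. Of the other 9 members 0 were called in each of these settings, and *Mkx* passed in each. Of 135 values of these 9, 129 kept their direction and side of the threshold, 1 crossed it (*Nfe2l2*, 0.57 without WT replicate 1) and 5 turned in sign, *Slc3a2* to -0.018, -0.077 and -0.0066 and *Gclm* to -0.020 and -0.067 when 1 library was left out. Over the libraries left out, *Slc3a2* ranged from -0.077 to 0.28 and *Gclm* from -0.067 to 0.22. Of 195 medians of lists 176 moved by less than the spread between replicates.

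Over all genes 275 were called higher and 193 lower. With scaling by library size 711 were higher and 154 lower, with a filter of 1 count in any library 541 and 322, and with no fold threshold 463 and 329. Leaving out a library gave 103 to 321 higher and 112 to 248 lower, lowest without WT replicate 3. Of the pathway genes 3 were called higher and 3 lower. This became 6 higher with scaling by library size and with no fold threshold, 5 lower in DESeq2 and with the filter of 1 count, 3 to 5 higher and 0 to 3 lower with a library left out, the 0 without *Mkx*-/- replicate 3, and 1 lower with the replicate block.

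Whether the replicate numbers pair the libraries is not given in the labels and cannot be decided with 3 libraries per group. Deviations from the group mean correlated at 0.026, -0.21 and 0.30 for numbers 1, 2 and 3, and WT replicate 1 correlated best with *Mkx*-/- replicate 2. With the block, 4 of the 10 pathway genes that had passed still did. Genes with few counts, such as *Slc7a11* in *Mkx*-/- libraries and *Nqo1*, have the largest counting error.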
